A study of Mus musculus with 12 samples.

Results

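Nitric oxide and cyclic GMP (cGMP) genes were followed in RNA-Seq of mouse abdominal aorta. The set held 10 genes, taken by symbol from a table of 55092 features. They were the NO synthases Nos1, Nos2 and Nos3, the soluble guanylyl cyclase subunits Gucy1a1 and Gucy1b1, the natriuretic peptide receptors Npr1 and Npr2, the cGMP-dependent kinase Prkg1, and the phosphodiesterases Pde5a and Pde3a. Of the 10, 9 passed the filter on low values and were tested, and Nos1 did not. Male mice in 4 groups of 3 were compared: CCN2fl/fl mice given saline (CFS) or Ang II (CFA), and CCN2SMCΔ mice given saline (CSS) or Ang II (CSA). Ang II was infused for 7 days by mini-osmotic pump, at 500 ng/kg/min. All mice carried floxed CCN2 alleles and had received 5 doses of tamoxifen at 8 weeks of age, followed by 2 weeks of washout. In CCN2SMCΔ mice a tamoxifen-inducible Cre driven by Myh11, a smooth muscle gene, deleted CCN2. The CCN2fl/fl mice carried no Cre, so the deletion and the Cre cannot be told apart.

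NO synthases make NO from arginine with the cofactor tetrahydrobiopterin. NO diffuses from endothelium into smooth muscle and switches on soluble guanylyl cyclase, a dimer of an alpha and a beta subunit. Natriuretic peptides act on Npr1 and Npr2, which are guanylyl cyclases of the cell surface. The cGMP formed by either route activates Prkg1, which relaxes vascular smooth muscle, and phosphodiesterases such as Pde5a end the signal. Nos3 is the enzyme of endothelium, Nos1 that of neurons, and Nos2 the inducible enzyme of activated macrophages and other cells.

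Expression is given as FPKM, fragments scaled to transcript length and library size, with 1 library per mouse. The depth recovered from them ran from 14558579 fragments in CSA mouse 03 to 23107793 in CFA mouse 71. Here a called gene is one that passed 2 limits in limma, a Benjamini-Hochberg adjusted p under 0.05 over the 14676 features tested and a log2 fold change beyond 1.5 in either direction. All fold changes are of FPKM + 0.1, which understates those of low genes. The targeted gene, Ccn2, lay at 709.5, 1108 and 480.1 FPKM in CFS, 436, 639.9 and 587 in CSS, 1013, 1105 and 564 in CFA and 255, 331 and 399 in CSA. Every CSA mouse lay below every CFA mouse (log2 fold change -1.41 with a standard error of 0.34, adjusted p = 0.00622, limma), short of the fold limit, whereas CSS and CFS overlapped. In bulk tissue, fewer cells of a type and less RNA per cell cannot be told apart. The 14 smooth muscle markers summed to 8269 to 11780.3 FPKM in CFA and 1148 to 1398 in CSA, and none was at 0 in any library. Of them 13 were called lower between CSA and CFA, and 0 higher, among them Myh11 (-4.17), Myl9 (-3.45) and Acta2 (-2.86), with a median log2 fold change of -2.81 against -0.0374 over all tested features. The 12 endothelium markers summed to 313 to 611 FPKM in CFA and 194 to 264 in CSA, with 3 lower and 1 higher of 12 tested, and were lowest in CFS mouse 69. Of the other lists, the 14 macrophage markers had 0 lower and 11 higher of 14 tested, neutrophil 0 lower and 11 higher of 11 tested, T cell 0 lower and 10 higher of 10 tested, B cell 0 lower and 2 higher of 4 tested, fibroblast 0 lower and 1 higher of 12 tested, and pericyte and mural cell 3 lower and 0 higher of 10 tested. Adipocyte markers had 6 lower and 0 higher of 12 tested, skeletal muscle 1 lower and 0 higher of 6 tested, and neuron and Schwann cell 0 lower and 1 higher of 9 tested. Over all tested features 8.27% were called lower and 8.95% higher. All 10 tested T cell markers, 7 of the 11 neutrophil markers and 2 of the 4 B cell markers failed the filter on low values without the CSA mice. They could be tested only if high there, and the counts of these lists are a description. The same held for 2 neuron and Schwann cell markers and for 1 each of macrophage, fibroblast, pericyte and mural cell, and skeletal muscle. These single markers are a description too. CSA mouse 03 stood apart, at a root mean square distance of 1.21 and 1.199 from the other CSA mice, which lay 0.505 apart (log2 scale, tested features), while mice of the other groups lay 0.586 to 0.743 from those of their own group. Among the CFA mice, mouse 72 lay nearest to CSA mice 01 and 02, at 1.26 and 1.23, against 1.46 to 1.51 for CFA mice 71 and 74. Macrophage markers summed to 843 FPKM in CFA mouse 72, against 435 and 399 in CFA mice 71 and 74. Adipocyte markers were high in CFS mouse 70 and skeletal muscle markers in CFS mouse 68 and CSS mouse 55. The part of these cell types in the results below was not tested.

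Coordinates are of GRCm38 (mm10) from the GENCODE M21 annotation, and the values cover all exons of a gene. Nos1 (ENSMUSG00000029361) spans chromosome 5, 117781032 to 117958840, Nos2 (ENSMUSG00000020826) spans chromosome 11, 78920787 to 78960254, and Nos3 (ENSMUSG00000028978) spans chromosome 5, 24364810 to 24384474. Gucy1b1 (ENSMUSG00000028005) spans chromosome 3, 82032006 to 82074689, and Gucy1a1 (ENSMUSG00000033910) spans chromosome 3, 82092427 to 82145789. The cyclase subunit genes lie on the same strand of the same chromosome, with 17737 bases between them. Npr1 (ENSMUSG00000027931) spans chromosome 3, 90450591 to 90465866, and Npr2 (ENSMUSG00000028469) spans chromosome 4, 43631935 to 43651244. Prkg1 (ENSMUSG00000052920) spans chromosome 19, 30564489 to 31765033. Pde5a (ENSMUSG00000053965) spans chromosome 3, 122728947 to 122859374, and Pde3a (ENSMUSG00000041741) spans chromosome 6, 141249269 to 141507448. Of its exonic bases, Nos3 shares 32.3% with Atg9b and Gm15587, Npr1 11.7% with Gm16048, Pde3a 5.82% with Gm28523, and Npr2 5.6996% with Gm12473. The library kit, as described, does not mark strand, so fragments of an overlapping gene could not be separated. Atg9b stayed at or below 0.464 FPKM and Gm15587 at or below 1.27 FPKM in all 12 libraries.

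The sequence before the start site is shown for 4 members of the receptor and kinase steps. Gucy1b1, Prkg1 and Npr1 were called lower in CSA than in CFA and Npr2 fell short of the fold limit. The sequences are RefSeq's (GRCm38.p6), 250 bases upstream of a start and 5′ to 3′ on the gene's strand. For Gucy1b1 the RefSeq start lies beyond the GENCODE span given above, and no GENCODE transcript holds the bases that follow the window. RefSeq windows were matched by symbol for 7 of the 10 members, 9 windows in all since Gucy1a1 and Prkg1 have 2 starts. Nos2, Nos3 and Pde3a had no entry. The windows are chr3:82074712-82074961, minus strand for Gucy1b1, chr19:31765034-31765283, minus strand for Prkg1 start 1, chr3:90465867-90466116, minus strand for Npr1, and chr4:43631685-43631934, plus strand for Npr2. Capitals mark GC boxes (GGGCGG) and CCAAT boxes (CCAAT), on either strand.
Gucy1b1: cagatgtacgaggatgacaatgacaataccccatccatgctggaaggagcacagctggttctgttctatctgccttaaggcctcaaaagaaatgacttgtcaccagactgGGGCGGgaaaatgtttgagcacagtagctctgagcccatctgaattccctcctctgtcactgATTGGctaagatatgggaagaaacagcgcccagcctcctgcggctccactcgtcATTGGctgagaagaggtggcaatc
Prkg1: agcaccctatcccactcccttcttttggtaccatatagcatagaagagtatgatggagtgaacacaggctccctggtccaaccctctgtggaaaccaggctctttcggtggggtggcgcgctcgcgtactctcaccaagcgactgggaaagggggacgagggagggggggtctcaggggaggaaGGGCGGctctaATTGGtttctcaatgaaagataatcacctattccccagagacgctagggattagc
Npr1: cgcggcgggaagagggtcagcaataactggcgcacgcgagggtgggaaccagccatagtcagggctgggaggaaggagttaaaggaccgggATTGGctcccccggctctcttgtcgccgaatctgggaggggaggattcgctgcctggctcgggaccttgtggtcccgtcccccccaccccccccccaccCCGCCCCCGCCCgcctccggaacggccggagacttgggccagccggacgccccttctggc
Npr2: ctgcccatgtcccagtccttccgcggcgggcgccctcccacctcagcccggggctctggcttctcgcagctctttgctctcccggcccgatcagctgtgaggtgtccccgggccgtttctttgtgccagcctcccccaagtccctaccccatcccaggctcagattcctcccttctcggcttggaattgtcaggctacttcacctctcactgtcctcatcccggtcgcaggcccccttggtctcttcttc
Gucy1b1 holds 1 GC box and 2 CCAAT boxes, Prkg1 1 of each, Npr1 2 GC boxes and 1 CCAAT box, and Npr2 neither. A GC box match was found in 6 of the 9 windows and a CCAAT match in 3. Of the windows not shown, start 1 of Gucy1a1, start 2 of Prkg1 and that of Pde5a hold a GC box. Start 2 of Gucy1a1 and the window of Nos1 do not, and none of these windows holds a CCAAT box. Gucy1a1 was called lower and Pde5a was not called, and no link between motifs and calls was tested. Among 32851 windows of the same length, 32.7% hold a GC box and 33.9% a CCAAT box. The other motifs searched on both strands had no match in the 9 windows. They were the CArG box (in 1.47% of all windows), the TEAD site CATTCC (12.6%), the E-box CACGTG (6.02%), the AP-1 sites TGACTCA and TGAGTCA (4.46%), the CRE TGACGTCA (1.55%) and the TATA box TATAAA (12.4%). No motif's letters overlap those of another in these windows. The CCAAT box was added after the windows had been seen.

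CSA against CFA gave the genotype effect under Ang II. The paper reports infrarenal aneurysm, with a remodelled media, in nearly all mice with the deletion under this infusion. In controls it reports only a few mild aneurysms, higher in the aorta. Whether each sequenced aorta held an aneurysm is not stated. Effects of genotype or Ang II therefore cannot be told apart from aneurysmal tissue where CSA is compared. In this comparison 8 of the 9 tested members were lower in CSA and Nos2 was higher. Of the 8, 6 were called lower, namely Prkg1, Nos3, Gucy1a1, Gucy1b1, Npr1 and Pde3a, and Nos2 was called higher, having passed the filter through the CSA mice alone. Beside these, 8.27% of all tested features were called lower and 8.95% higher. The 8 lower members did not overlap between CSA and CFA, against 25.1% of all features, nor did Nos2, which lay above (23.4% of all features). The median log2 fold change of the 9 was -2.27, beside -0.0374 over all features. Prkg1, Gucy1a1, Gucy1b1, Npr1 and Pde3a remained called in each of the 12 fits that left out 1 mouse.

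**Figure D1:**
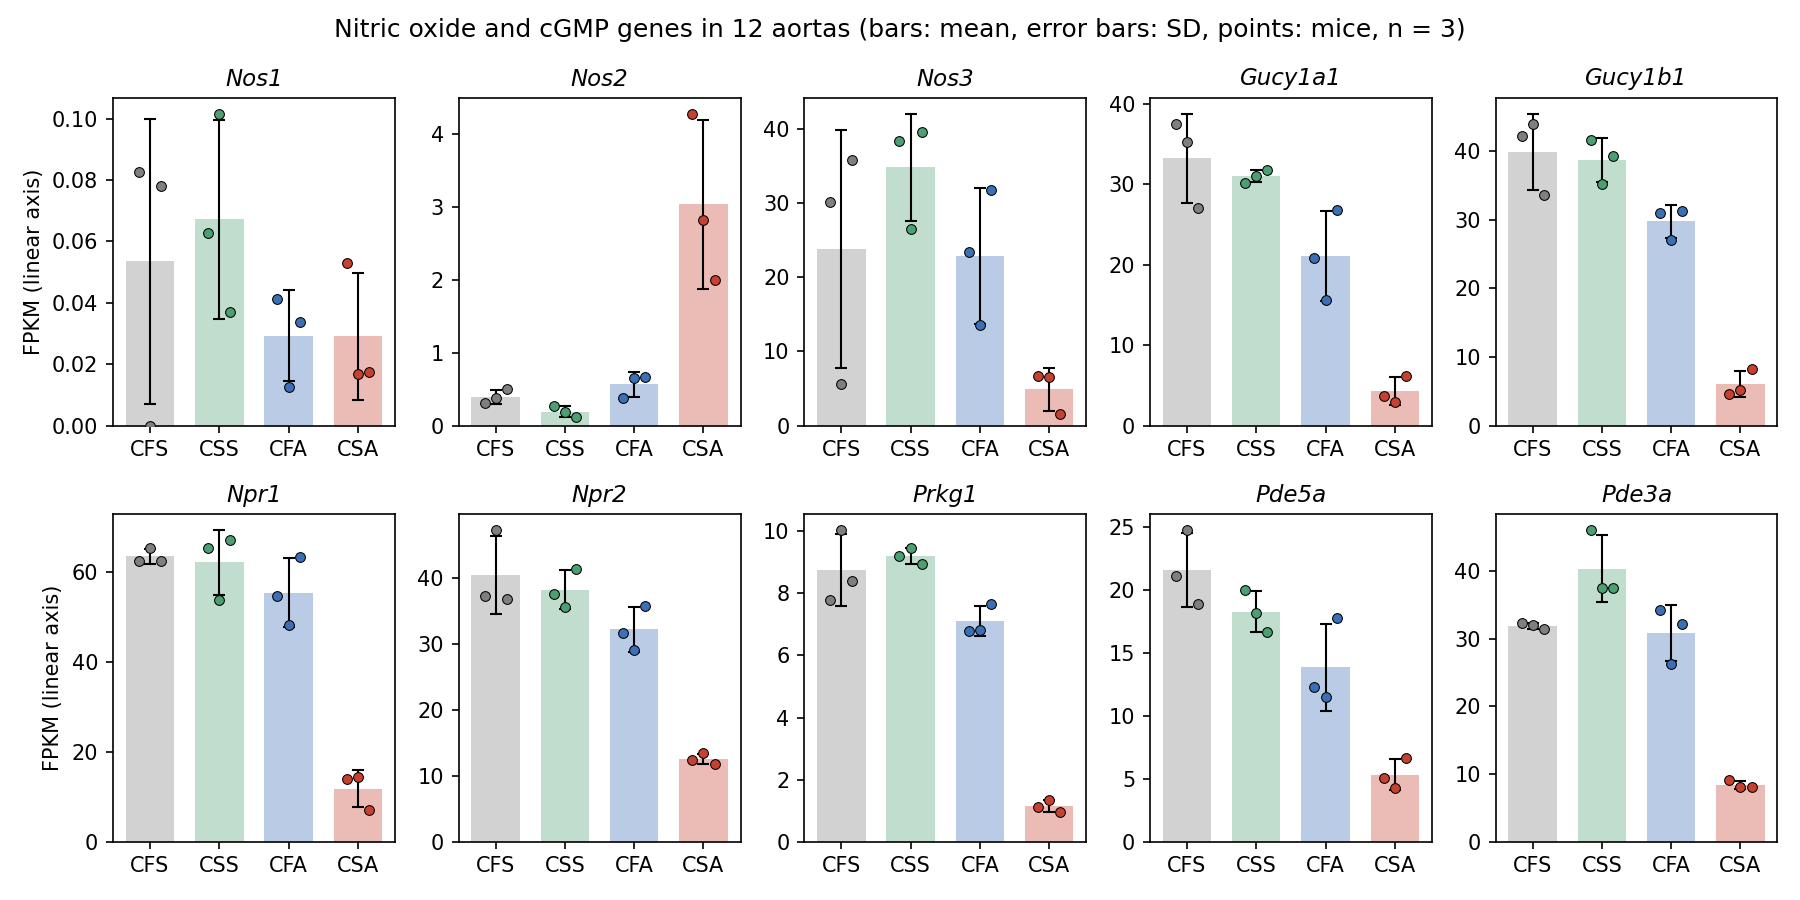
FPKM of the 10 genes (linear vertical axes, 1 panel per gene) in the 4 groups, with each mouse as a point, the group mean as a bar and the SD as an error bar (n = 3). In 8 panels the CSA points lie below those of CFA, in the Nos2 panel they lie above all others, and the Nos1 axis ends near 0.102 FPKM.

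The sources of NO differed in direction. Nos3 was 30.1, 5.63 and 35.8 FPKM in the CFS mice, 38.3, 26.4 and 39.6 in CSS, 23.4, 13.5 and 31.7 in CFA and 6.69, 6.49 and 1.55 in CSA. All 3 CSA mice lay below the CFA mice, and CFS mouse 69 lay in the CSA range. The mean fell from 22.8 ± 9.11 FPKM in CFA to 4.91 ± 2.91 in CSA (mean ± SD of 3 mice), with a log2 fold change -2.37 with a standard error of 0.71, adjusted p = 0.0207 (limma). This was the widest interval among the members, -3.93 to -0.80 on the log2 scale, and the call was lost in the fits without CFA mouse 71 (adjusted p = 0.0582), CFA mouse 74 (adjusted p = 0.0764) or CSA mouse 03 (adjusted p = 0.0678, log2 fold change -1.69).

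The endothelium markers, read beside Nos3, summed to 167 FPKM in CFS mouse 69, the lowest of all libraries, and to 194 to 264 in the CSA mice, with the other CFS mice at 545 and 545. None of the 12 markers was at 0 in any library. Between CSA and CFA their median log2 fold change was -0.64, with a range from -2.36 to 1.56, and 8 of the 12 were not called. The 3 most abundant all lay below that median, at -1.84 for Pecam1, -2.36 for Vwf and -1.11 for Cldn5 (adjusted p = 0.109, limma, not called). On the log2 scale, Nos3 minus the mean of these markers was 0.16, -0.36 and 0.17 in CFA and -1.44, -1.20 and -2.88 in CSA. The group means of this quantity differed by -1.83, with no overlap (exact permutation p = 0.1, the smallest that 3 against 3 allow). That difference rests on which markers are averaged. Vwf, the lowest of the 12, changed by -2.36, Pecam1 by -1.84 and Cldn5 by -1.11, beside -2.37 for Nos3. The median marker changed by -0.64, and 1 of the 12 was called higher. The part of endothelium in the level of Nos3 was not tested. In CFS, Nos3 minus the mean of the 12 markers was 0.34, -0.76 and 0.44, and in CSS 0.64, 0.37 and 1.16.

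Nos2, the inducible enzyme, was low in 3 groups. It was 0.307, 0.376 and 0.499 FPKM in CFS, 0.268, 0.183 and 0.125 in CSS, 0.375, 0.652 and 0.674 in CFA and 4.29, 2.83 and 1.997 in CSA. Every CSA mouse lay above every other mouse, and no mouse outside CSA reached 1 FPKM. Nos2 rose in CSA over CFA (log2 fold change 2.20 with a standard error of 0.38, adjusted p = 8.06e-04, limma) and passed the filter through the CSA mice alone, so it had to be high there to be tested. These levels stand for 784 fragments over the CSA libraries and 160 over the CFA libraries. With a pseudocount of 1 the log2 fold change was 1.33 (adjusted p = 2.13e-04), short of the fold limit.

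The 14 macrophage markers summed to 399 to 843 FPKM in CFA and 2546 to 2951 in CSA, and none was at 0 in any library. Nos2 minus their mean on the log2 scale was -4.89, -5.32 and -4.07 in CFA and -4.26, -4.89 and -5.23 in CSA. The groups overlapped, and the difference of -0.0362 (95% interval -1.22 to 1.14, limma) had an exact permutation p of 1. These values are a description, since Nos2 was tested only because it was high in the CSA mice. With 3 mice per group and so wide an interval they cannot show that Nos2 moved with the markers. The 3 of these markers with the highest mean FPKM were Lyz2, C1qb and C1qa, with log2 fold changes of 2.31, 2.86 and 2.50 between CSA and CFA. The part of macrophages in the level of Nos2 was not tested.

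The share of Nos2 in the summed FPKM of the 3 NO synthases was 1.58, 4.603 and 2.08% in CFA and 38.9, 30.3 and 56.1% in CSA. In CSA mouse 03, Nos2 exceeded Nos3. The sum itself was 23.8, 14.2 and 32.4 FPKM in CFA and 11.03, 9.34 and 3.56 in CSA, so it was lower in CSA although Nos2 was higher. Among the 16 tests of ratios between members, 4 ratios in 4 comparisons, none passed Benjamini-Hochberg adjustment (smallest exact p = 0.1, adjusted p = 0.229).

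Nos1, the neuronal enzyme, was 0.0825, 0 and 0.07799 FPKM in CFS, 0.0627, 0.102 and 0.0371 in CSS, 0.0412, 0.0127 and 0.0338 in CFA and 0.05300, 0.0169 and 0.0176 in CSA. The groups overlapped, and no library held more than 21 fragments of it. A difference was not detectable at this depth, and the value listed at 0 in CFS mouse 69 allows up to 3 fragments.

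The soluble guanylyl cyclase subunits were both lower in CSA. Gucy1a1, the alpha subunit, was 37.6, 35.2 and 27.03 FPKM in CFS, 30.2, 31.1 and 31.7 in CSS, 20.9, 15.7 and 26.8 in CFA and 3.68, 2.902 and 6.21 in CSA. Gucy1b1, the beta subunit that binds the haem, was 42.2, 43.98 and 33.6 FPKM in CFS, 41.7, 35.3 and 39.2 in CSS, 30.999, 26.999 and 31.3 in CFA and 4.68, 5.25 and 8.26 in CSA. In both genes the CSA mice lay far below all others. Gucy1a1 was 4.99-fold lower in CSA than in CFA (log2 fold change -2.32 with a standard error of 0.27, adjusted p = 5.62e-05, limma), and Gucy1b1 4.99-fold lower (log2 fold change -2.32 with a standard error of 0.20, adjusted p = 7.87e-06, limma). The ratio of Gucy1a1 to Gucy1b1 FPKM within a library was 0.674, 0.5801 and 0.857 in CFA and 0.787, 0.553 and 0.752 in CSA, and the groups overlapped (exact permutation p = 1). With so few mice and this spread, the ratios cannot show that the subunits moved together. CSA mouse 03 held the highest level of each subunit within CSA.

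Both natriuretic peptide receptors were lower in CSA. Npr1, the receptor of the atrial and B-type peptides, was 62.5, 65.5 and 62.6 FPKM in CFS, 65.5, 53.9 and 67.2 in CSS, 54.7, 48.2 and 63.5 in CFA and 14.05, 14.5 and 7.14 in CSA, and CSA mouse 03 was the lowest (log2 fold change -2.27 with a standard error of 0.24, adjusted p = 3.00e-05, limma). Npr2, the receptor of the C-type peptide, was 37.2, 47.2 and 36.8 FPKM in CFS, 37.6, 35.5 and 41.3 in CSS, 31.7, 29.1 and 35.8 in CFA and 12.3, 13.4 and 11.9 in CSA. It was lower in all 3 CSA mice but short of the fold limit (log2 fold change -1.35 with a standard error of 0.13, adjusted p = 2.01e-05, limma). The ratio of Npr1 to Npr2 was 1.73, 1.65 and 1.77 in CFA and 1.14, 1.08 and 0.601 in CSA. The groups did not overlap (exact permutation p = 0.1, the smallest possible, adjusted p = 0.229). Npr1 ranked first among the members by mean FPKM in CFS, CSS and CFA with no overlap with the next, whereas in CSA Npr2 and Npr1 overlapped at the top.

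Prkg1, the kinase that carries the cGMP signal, had the smallest adjusted p among the members. It was 7.79, 10.03 and 8.39 FPKM in CFS, 9.204, 9.46 and 8.93 in CSS, 6.798, 6.83 and 7.65 in CFA and 1.14, 1.35 and 0.971 in CSA, so the CSA values lay apart from all others. The log2 fold change was -2.53 between CSA and CFA, a 5.77-fold lower level (standard error 0.14, adjusted p = 7.09e-07, limma). Prkg1 values did not come out as whole fragments with the exon length of this annotation, so its FPKM may rest on another gene model.

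The phosphodiesterases were lower as well. Pde5a, which degrades cGMP, was 21.1, 24.8 and 18.9 FPKM in CFS, 19.98, 18.1 and 16.7 in CSS, 12.3, 11.5 and 17.8 in CFA and 5.06, 4.28 and 6.65 in CSA. It was lower in CSA without reaching the fold limit (log2 fold change -1.36 with a standard error of 0.20, adjusted p = 3.13e-04, limma), and passed it when CSA mouse 03 was left out (log2 fold change -1.53). Pde3a, which degrades cAMP and is inhibited by cGMP, was 32.3, 31.98 and 31.4 FPKM in CFS, 46.03, 37.5 and 37.4 in CSS, 34.2, 26.2 and 32.1 in CFA and 9.14, 8.07 and 8.17 in CSA. The CSA mice lay close together and below all others (log2 fold change -1.85 with a standard error of 0.13, adjusted p = 2.63e-06, limma). The ratio of Gucy1b1 to Pde5a, a cyclase subunit to the enzyme that removes its product, was 2.53, 2.35 and 1.76 in CFA and 0.925, 1.23 and 1.24 in CSA, without overlap (exact permutation p = 0.1, adjusted p = 0.229).

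CSA against CSS gave the Ang II effect in CCN2SMCΔ mice. The 8 tested members other than Nos2 were all called lower, against 9.36% of all features. Nos2 was called higher (background 10.9%), but it was tested only because it was high in the CSA mice, so its call here is a description. The 8 did not overlap between the groups (background 29.1%), and Nos2 lay above (background 26.3%). The log2 fold changes of the lower members ran from -3.03 for Nos3 to -1.60 for Npr2, and Nos2 was at 3.39 (adjusted p = 3.12e-05, limma). Without CSA mouse 03 Nos3 was at -2.36. This comparison and CSA against CFA share the CSA mice and are not independent.

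CFA against CFS gave the Ang II effect in CCN2fl/fl mice, where no member was called by limma. Unadjusted p was under 0.05 for 3 of the 9, and for 1383 of all 14676 features. Pde5a had the smallest (log2 fold change -0.66, unadjusted p = 0.00798, adjusted p = 0.285), followed by Gucy1a1 (-0.67, adjusted p = 0.447) and Npr2 (-0.32, adjusted p = 0.475). Of all features 0.00681% were called lower and 0.0204% higher. The 3 CFA mice lay below the 3 CFS mice in 5 members, namely Gucy1a1, Gucy1b1, Npr2, Prkg1 and Pde5a, against 10.8% of all features. The smooth muscle markers were lower in CFA too. Their mean log2(FPKM + 0.1) was 7.85, 7.89 and 7.55 in CFA and 8.01, 8.22 and 7.93 in CFS, and their part in these differences was not tested. The median log2 fold change of the 9 was -0.29. These values leave room for a change, since the interval of Pde5a was -1.10 to -0.21 and that of Nos3 -1.33 to 1.80.

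CSS against CFS gave the genotype effect under saline, and again no member was called by limma, with 1 of the 9 at an unadjusted p under 0.05 and 924 of all features. The 3 CSS values of Pde3a lay above the 3 CFS values (log2 fold change 0.33, unadjusted p = 0.0289, adjusted p = 0.689, limma, background 11.1%). The summed FPKM of the pericyte and mural cell markers was higher too, at 1982 to 2231 in CSS and 997 to 1490 in CFS. Most of that sum was Rgs5, with a mean of 1597 FPKM in CSS and 854 in CFS. Over the 10 markers the median log2 fold change was 0.14, with a range from -0.81 to 0.95, and 0 were called. On the log2 scale the means of these markers overlapped between CSS and CFS. Their part in the level of Pde3a was not tested. Nos2 lay lower in CSS without overlap (-0.77, adjusted p = 0.823; background 9.31%). The called shares of all features were 0.00681% lower and 0.00681% higher. For Gucy1a1, Gucy1b1, Npr1, Npr2 and Prkg1 the log2 fold change lay between -0.0873 and 0.0807, and the widest of their intervals was that of Gucy1a1, -0.68 to 0.50. Nos3 was at 0.90 with all mice and 0.0597 without CFS mouse 69.

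**Figure D2:**
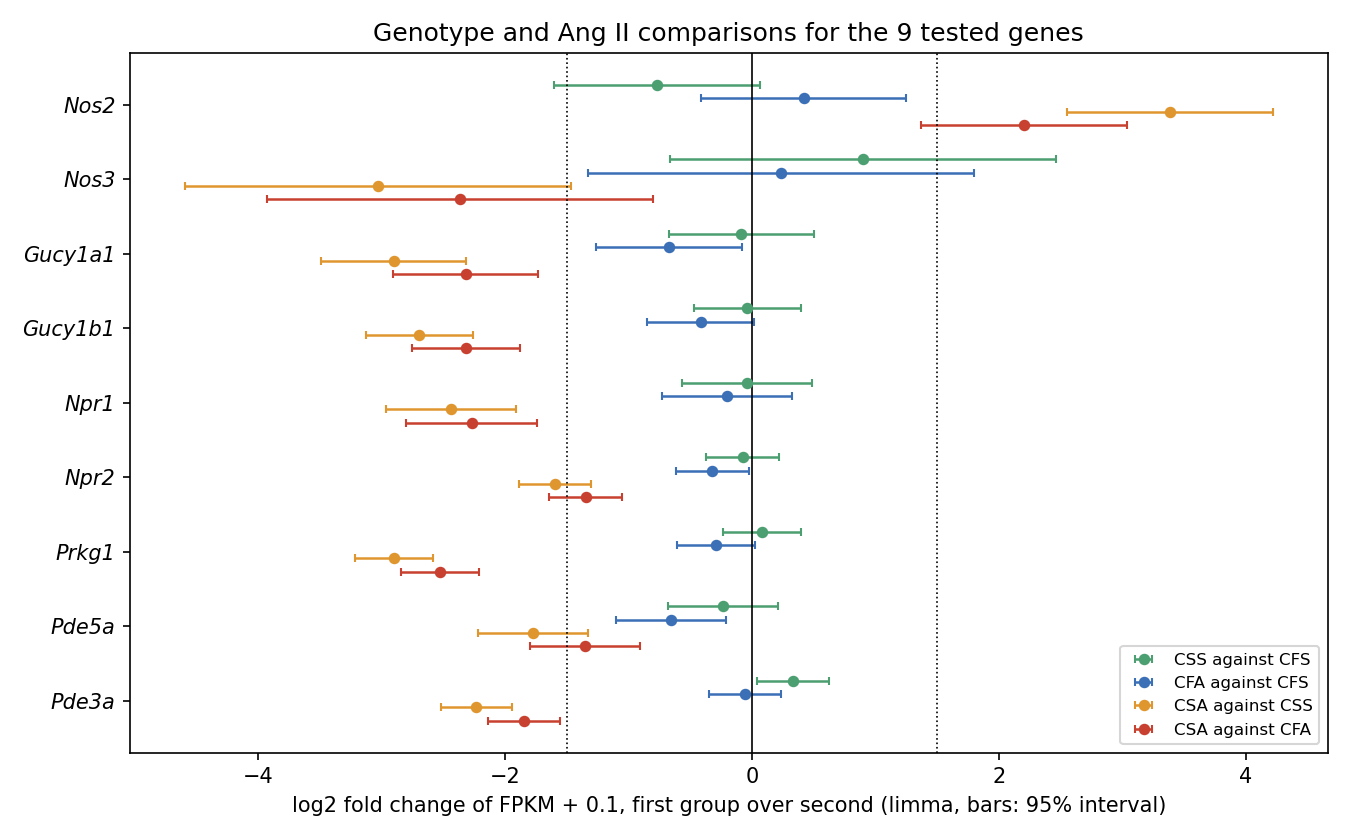
log2 fold change of FPKM + 0.1 (horizontal axis) of the 9 tested genes in the 4 pairwise comparisons, with 95% intervals from limma and dotted lines at the fold limit of 1.5. The points of both comparisons with CSA lie left of 0 for 8 genes and right of 0 for Nos2, and those of the other 2 comparisons lie within the dotted lines.

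The genotype effect differed between Ang II and saline. The interaction was called lower for 6 members, against 7.31% of all features. Nos2 was called higher (7.89% of all features), which is again a description, since it was tested only through the CSA mice. The interaction had its smallest adjusted p for Prkg1 (log2 -2.61, standard error 0.20, adjusted p = 2.50e-05) and Pde3a (-2.18, 0.19, adjusted p = 3.63e-05, limma). Npr2 and Pde5a had adjusted p-values of 7.35e-04 and 0.0142 with differences short of the fold limit. The interaction of Nos3 (adjusted p = 0.0337) was no longer called without a filter on low values, or without CFA mouse 71 or 74, CSA mouse 03, or CSS mouse 54 or 56. It was -3.27 with all mice, -2.43 without CFS mouse 69 and -2.59 without CSA mouse 03.

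Levels were also set against smooth muscle transcripts of the same library. Each library's mean log2(FPKM + 0.1) over the 14 smooth muscle markers, none of them a member, was subtracted. This adds the same amount to the difference between CSA and CFA of every gene. Since no member had fallen as far as the mean of the markers, the scaling by itself put all 9 members higher in CSA than in CFA, and the turned direction of 8 of them is no separate result. The median marker had fallen by 2.81 on the log2 scale, more than any member. Of the 9, 3 were called higher and none lower, and 88.7% of all features were called higher and 0.17% lower on this scale. These shares follow from the same shift, and the members' count restates how far each had fallen before centring. The called ones were Npr2 (log2 difference 1.62 with a standard error of 0.18, adjusted p = 9.19e-07), Pde5a (1.61 with a standard error of 0.28, adjusted p = 8.75e-05, limma) and Nos2, which stood at 5.18 with the shift added to its own difference and was tested only through the CSA mice. Prkg1 moved least (0.44 with a standard error of 0.18, adjusted p = 0.0343), with -5.06, -5.10 and -4.60 in CFA and -4.50, -4.45 and -4.49 in CSA. Gucy1a1 (0.65 with a standard error of 0.34, adjusted p = 0.0843) and Nos3 (0.60 with a standard error of 0.74, adjusted p = 0.441) did not pass the adjusted p. Gucy1b1 (0.65 with a standard error of 0.25, adjusted p = 0.0254), Npr1 (0.70 with a standard error of 0.22, adjusted p = 0.00919) and Pde3a (1.12 with a standard error of 0.19, adjusted p = 7.98e-05) passed it but not the fold limit. Npr2 relative to smooth muscle markers was -2.86, -3.02 and -2.38 in CFA and -1.17, -1.23 and -1.003 in CSA, and the groups did not overlap. Leaving out CFA mouse 72 brought the count to 1, with only Nos2 called. Without CSA mouse 03 it was also 1, with only Npr2 called. Pde5a lost its call without CFA mouse 71 too. A test without the fold limit brought the count to 7, where at least the 88.7% of all features given above pass.

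**Figure D3:**
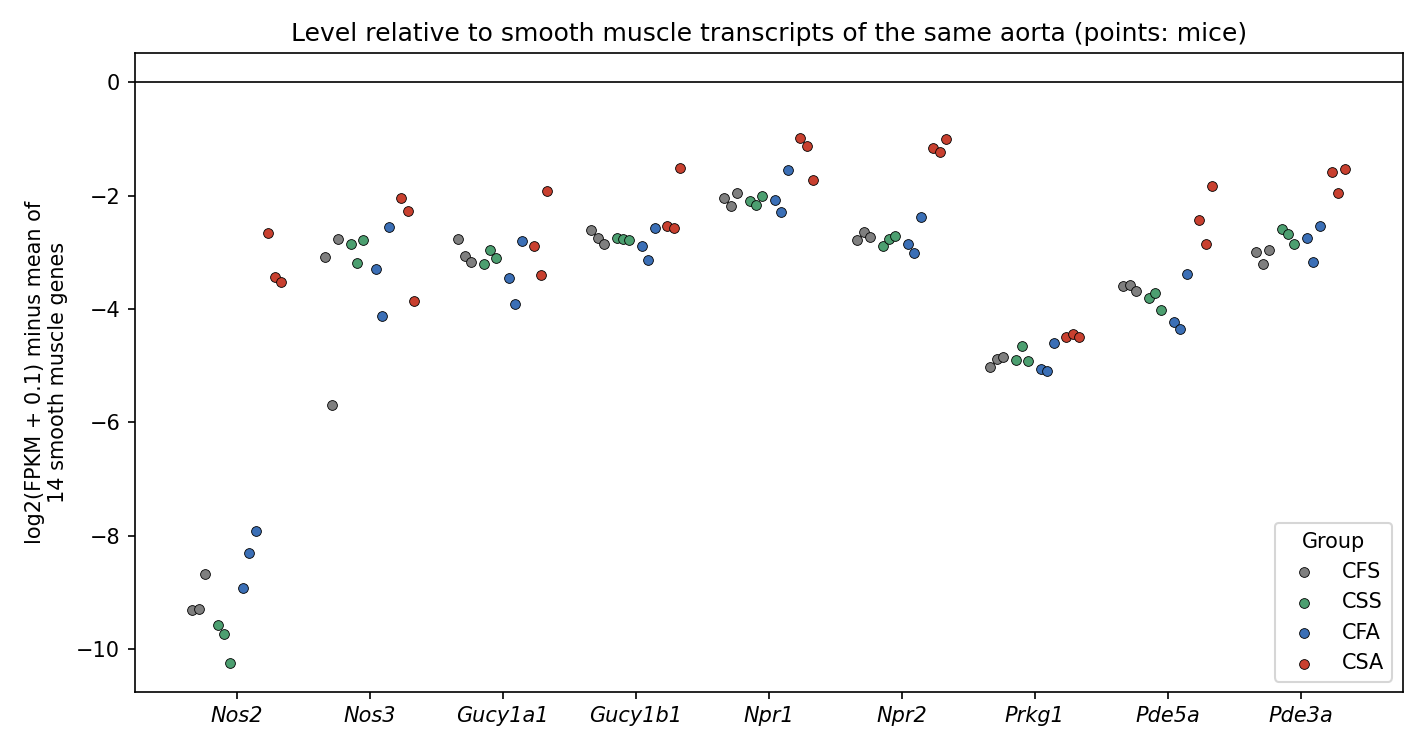
log2(FPKM + 0.1) of each gene minus the mean over 14 smooth muscle genes of the same library (vertical axis), 1 point per mouse, coloured by group. The CSA points of Npr2 lie above those of the other groups, whereas those of Gucy1a1 overlap CFA and those of Prkg1 differ by less than 0.1 among themselves.

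**Figure D4:**
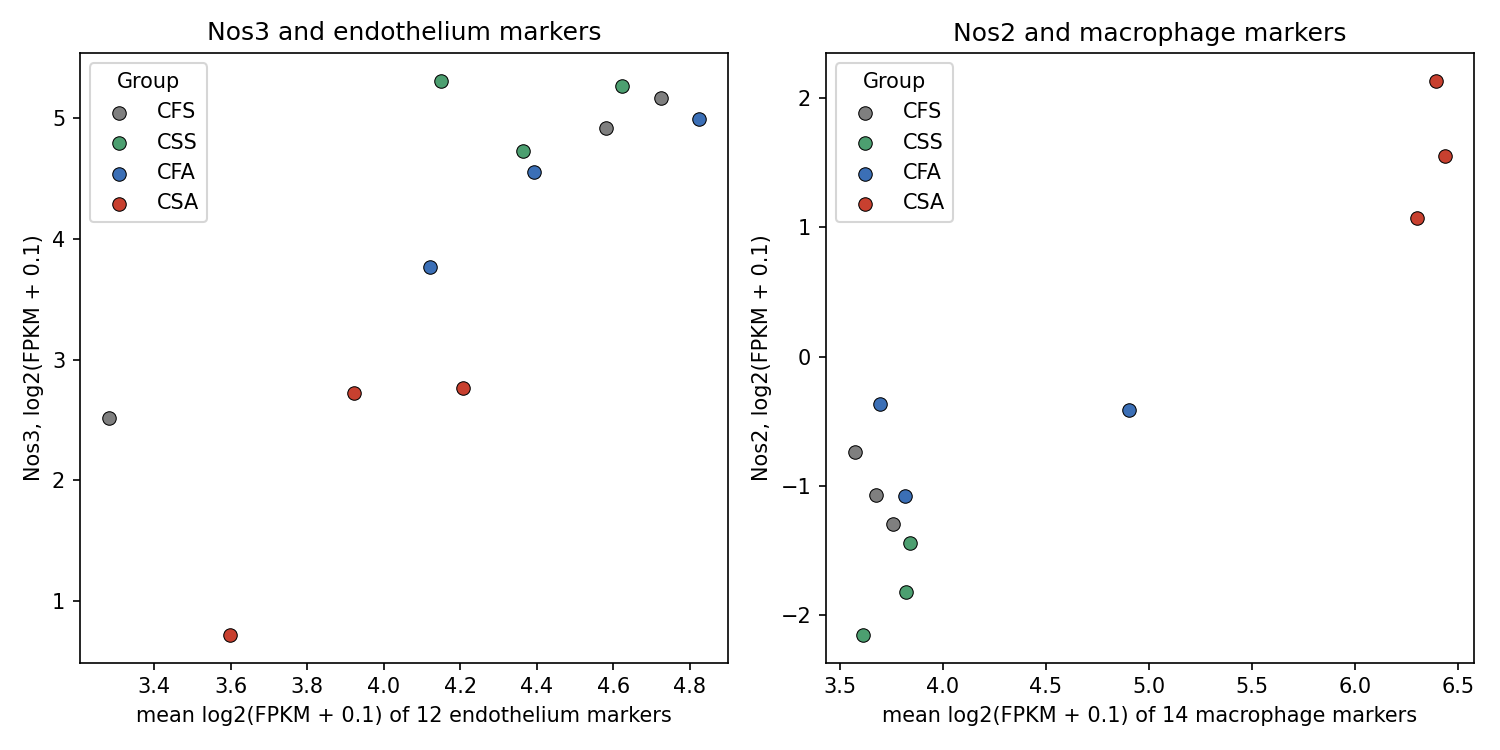
Nos3 against the mean of 12 endothelium markers (left) and Nos2 against the mean of 14 macrophage markers (right), all as log2(FPKM + 0.1), 1 point per mouse. CFS mouse 69 is the grey point at the left of the Nos3 panel, and the 3 CSA mice stand apart at the right of the Nos2 panel.

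Other genes of the pathway were read from 4 lists of 64 genes, of which 49 were tested. Between CSA and CFA 13 were called lower and 5 higher, beside 8.27% and 8.95% of all features, so that the share called higher was near the background. Their median log2 fold change was -0.17. Under saline, and between CFA and CFS, 0 of the 49 were called by limma, where at most 0.0204% of all features were called in any 1 direction. Unadjusted p was under 0.05 for 4 of them under saline, where it was for 924 of all 14676 features, and for 10 between CFA and CFS, where it was for 1383.

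Among arginine, cofactor and NO synthase partners, 3 of 20 tested genes were called lower and 2 higher, near the 8.27% and 8.95% of all features, and the median was -0.0622 beside -0.0374 over all features. The called genes are given as single genes, not as a result about the list. Ddah1, which degrades the methylarginine inhibitors of NO synthase, was 2.22, 2.01 and 1.8002 FPKM in CFA and 14.7, 15.3 and 26.5 in CSA (log2 fold change 3.11 with a standard error of 0.45, adjusted p = 2.51e-04, limma). The other gene called higher was Gch1, which makes the first step towards tetrahydrobiopterin (1.05 ± 0.139 FPKM in CFA and 3.83 ± 0.328 in CSA, log2 fold change 1.78). Nos1ap, an adaptor of Nos1, fell from 2.64, 2.15 and 4.002 FPKM in CFA to 0.401, 0.4097 and 0.07202 in CSA (log2 fold change -3.06 with a standard error of 0.41, adjusted p = 1.74e-04, limma). Cav1, the caveolar protein that binds and holds back Nos3, fell from 185 ± 25.03 to 52.8 ± 9.83 FPKM (log2 fold change -1.81). Cav3, its muscle relative, was 12.4, 15.5 and 7.46 FPKM in CFA and 3.87, 4.73 and 0.282 in CSA, the third gene called lower (log2 fold change -2.55 with a standard error of 0.77, adjusted p = 0.0214, limma). Gch1 and Cav1 were named after their values were seen.

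Of the other guanylyl cyclases and natriuretic peptide genes, 5 of 14 were tested and 1 was called, lower, too few to read against the 8.27% of all features. This was Mme, neprilysin, a peptidase that degrades natriuretic peptides, at 3.41, 3.02 and 1.71 FPKM in CFA and 0.179, 0.212 and 0.458 in CSA (log2 fold change -2.89 with a standard error of 0.35, adjusted p = 8.50e-05, limma). Gucy1a2, a further alpha subunit, was lower in the same direction as Gucy1a1 but short of the fold limit (1.07 ± 0.197 FPKM in CFA, 0.327 ± 0.0887 in CSA, log2 fold change -1.46 with a standard error of 0.27, adjusted p = 0.00119, limma). Cyb5r3, a reductase that keeps the haem of soluble guanylyl cyclase reduced, was at 255, 270.2 and 123 FPKM in CFA and 95.6, 112 and 73.6 in CSA (log2 fold change -1.14, adjusted p = 0.00556, limma).

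Among the other cGMP phosphodiesterases and export genes, 7 were tested, 1 was called higher and 0 lower, beside 8.95% and 8.27% of all features, so the count does not set the list apart. The median log2 fold change was 0.34. The called gene was Pde1b. Pde1b, a calcium-activated phosphodiesterase, was 1.11, 2.07 and 2.09 FPKM in CFA and 7.07, 6.76 and 2.97 in CSA (log2 fold change 1.57 with a standard error of 0.37, adjusted p = 0.00560, limma). Pde1a, its relative in smooth muscle, was 5.48, 4.22 and 5.82 FPKM in CFA and 8.55, 10.3 and 18.8 in CSA, higher but short of the fold limit (log2 fold change 1.19 with a standard error of 0.25, adjusted p = 0.00293, limma). CSA mouse 03 was the lowest CSA mouse for Pde1b and the highest for Pde1a. Abcc4, a pump that exports cyclic nucleotides, was 2.08 ± 0.171 FPKM in CFA and 4.12 ± 0.431 in CSA (log2 fold change 0.95, adjusted p = 0.00275, limma).

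Partners and substrates of the kinase were mostly lower. Of 17 tested, 9 were called lower and 2 higher, beside 8.27% and 8.95% of all features, and the median log2 fold change was -1.78. Irag1 (listed as Mrvi1), the protein through which the kinase restrains calcium release, was 92.2, 69.2 and 92.7 FPKM in CFA and 9.15, 9.93 and 6.39 in CSA, 9.95-fold lower (log2 fold change -3.31 with a standard error of 0.21, adjusted p = 1.31e-06, limma). Ppp1r12b, a targeting subunit of myosin phosphatase, was 78.6, 79.3 and 65.7 FPKM in CFA and 9.08, 11.4 and 6.53 in CSA (log2 fold change -3.07 with a standard error of 0.19, adjusted p = 1.35e-06, limma). Pln, phospholamban, which restrains the calcium pump of the sarcoplasmic reticulum, was 0.915, 0.905 and 1.38 FPKM in CFA, while in CSA it was listed at 0 in mice 01 and 03 and stood at 0.0854 in mouse 02. These are 5 fragments in the 3 CSA libraries against 189 in CFA, and Pln shares 64.7% of its exonic bases with other annotated genes. The other 6 called lower were Kcnmb1, Csrp1, Hspb6, Rgs4, Ppp1r12a and Itpr1, between -2.70 and -1.78 on the log2 scale. The 2 called higher were Irag2 (2.49, listed as Lrmp, a relative of Irag1 known from lymphoid cells) and Rgs2 (1.84, a brake on Gq signalling). These 8 were named after their values were seen.

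**Figure D5:**
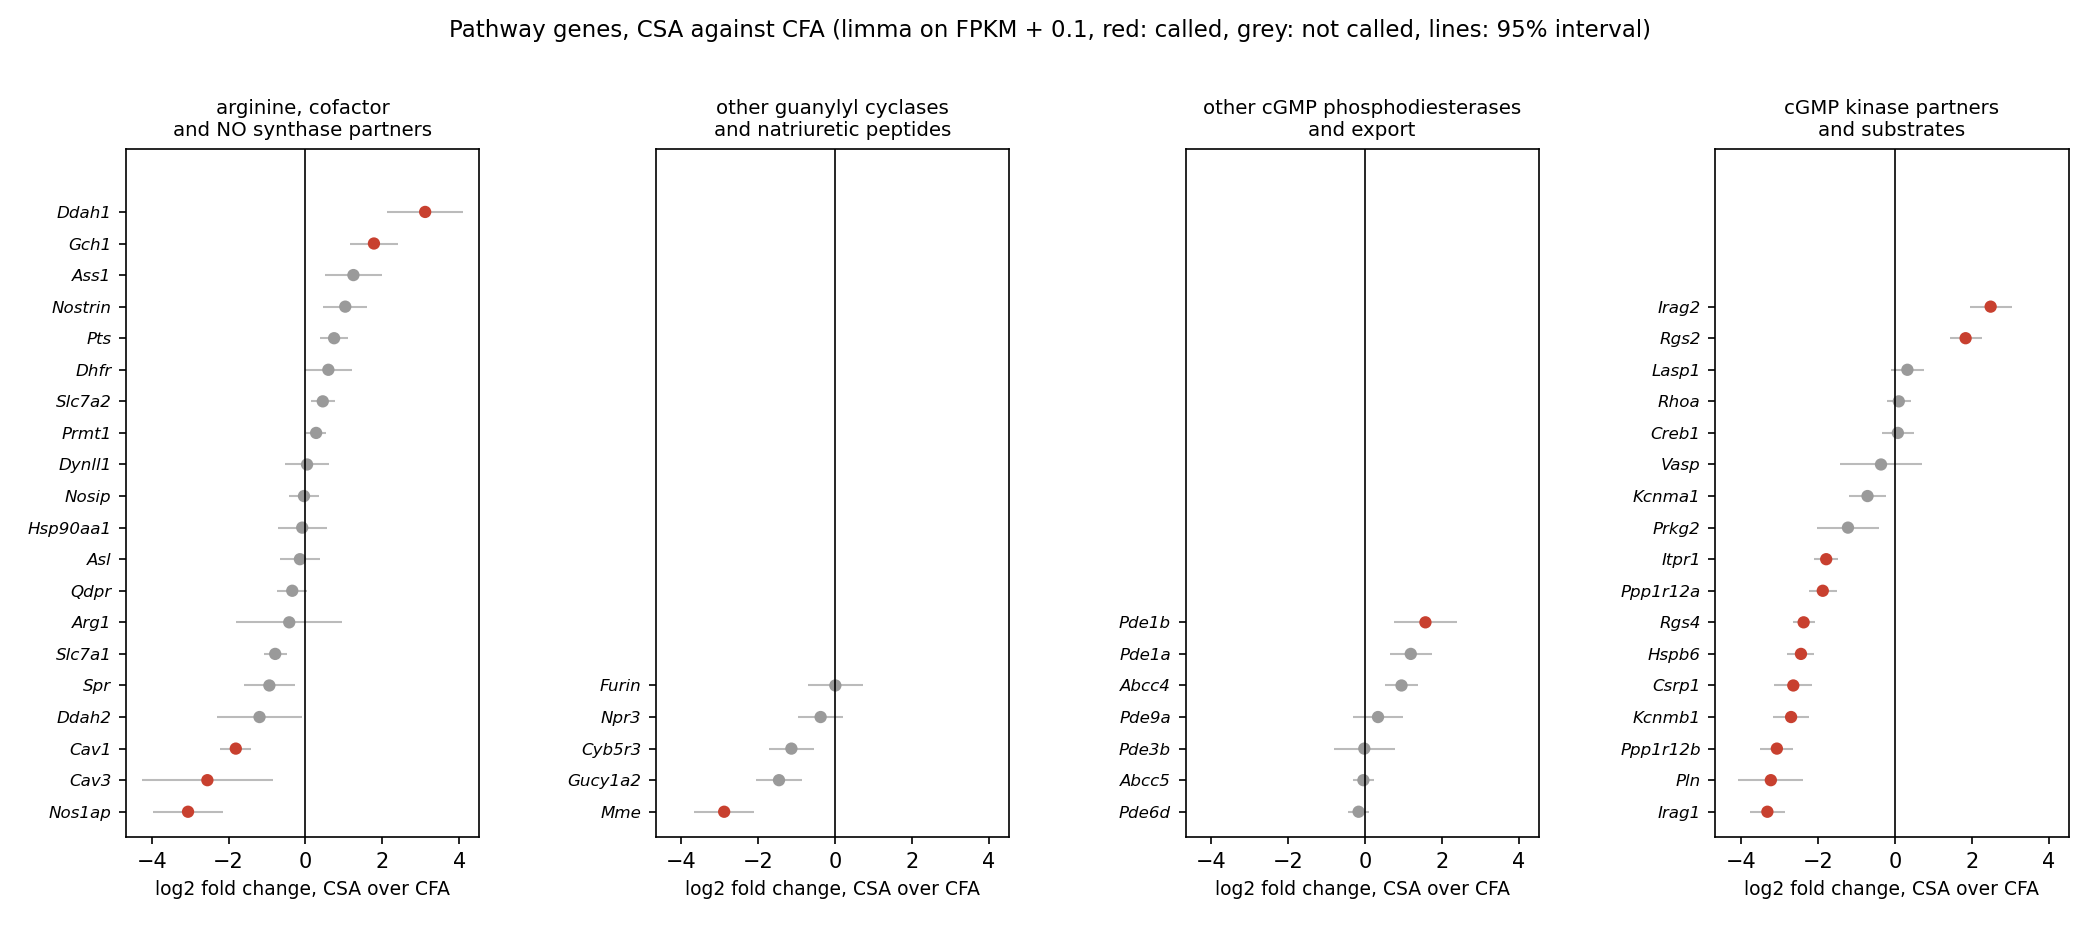
log2 fold change of FPKM + 0.1 between CSA and CFA (horizontal axis) for the 49 tested pathway genes in 4 lists, with 95% intervals from limma. Called genes are red, and most of the red points left of 0 belong to the partners and substrates of the kinase.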

How the data were processed

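RNA-Seq of abdominal aorta from 12 male mice in 4 groups of 3 was used, and groups were taken from the sample labels. The authors deposited FPKM, 1 value per gene and mouse, without pooling. The submitters' processing notes name HISAT2 2.0.5, StringTie 1.3.3b, featureCounts 1.5.0-p3 and mm10. With GENCODE M21 exon lengths, 98.1% to 98.5% of values under 100 fragments came out whole (tolerance 0.05), which gave the depth. Intervals and limits from fragments cover counting error only.

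Values were fitted as log2(FPKM + 0.1) with limma 3.58.1 in R 4.3.3 (eBayes, trend and robust), 1 coefficient per group, over features that reached 1 FPKM in 3 or more libraries. Benjamini-Hochberg adjustment ran over all tested features of a comparison. The script was tested on simulated data. Ratios were compared by two-sided exact permutation tests. Centred levels were compared by limma and by the same permutation tests, which are printed only for centring on endothelium or macrophage markers. Members and lists were chosen with earlier results of these data known. Named were all members, from each of the 4 pathway lists the 3 tested genes with the largest change between CSA and CFA, from each marker list the 3 with the highest mean FPKM, and Ccn2. Other names are marked, and most marker lists are given as counts only. An item of the pathway lists is not reported here and was left out of their counts. Alternatives were a pseudocount of 1, no filter, a mean FPKM of at least 5, TPM scaling, eBayes without trend and robust settings, no fold limit, only the 2 groups compared, and leaving out each mouse. Centring on endothelium or macrophage markers was added after the data were seen. RefSeq and GENCODE supplied sequences and positions. Tables and figures used Python 3.11.15, pandas 2.3.3 and matplotlib 3.10.9.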

Additional observations from a re-analysis of the deposited data

Results flagged for a closer look

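For 9 members the genotype effect under Ang II differed from that under saline by the interaction term of limma (adjusted p under 0.05). No fold limit was set for this count. Unadjusted p of the interaction (limma) was under 0.05 for the same 9, and for 5534 of all 14676 features. The differences, (CSA minus CFA) minus (CSS minus CFS) on the log2 scale, were -2.61 for Prkg1, -3.27 for Nos3, -2.28 for Gucy1b1, -2.23 for Gucy1a1, -2.24 for Npr1 and -2.18 for Pde3a. They were -1.27 for Npr2 and -1.12 for Pde5a, both under the fold limit, and 2.97 for Nos2, which is positive but a description, since Nos2 passed the filter on low values through the CSA mice alone. Smooth muscle, endothelium and macrophage markers moved in the same libraries, and their part in these differences was not tested. The part of any aneurysm in the CSA aortas was not tested either. The difference of Nos3 was -2.43 without CFS mouse 69 and -2.59, no longer called, without CSA mouse 03. Groups of 3 are too small for a test of single outlying mice.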

How the results depend on the processing

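No paired analysis was possible because the mouse numbers are not shared between groups. In CSA against CFA the count of called members was 6 to 7 with 1 mouse left out at a time, and 6 with a pseudocount of 1 or with a mean FPKM of at least 5, both without Nos2, and 9 without a fold limit. Beside that 9, unadjusted p (limma) was under 0.05 for 7184 of all 14676 features in this comparison. In CSA against CSS the leave-one-out count was 8 to 9, in the interaction 5 to 7 and in the other 2 comparisons 0. After centring on smooth muscle markers it was 3, with 1 to 3 when a mouse was left out and 7 without a fold limit. Nos2 left the fits without a CSA mouse because it then missed the filter, by the construction of that filter. Apart from the centred fits, no called member changed sign. Centred on endothelium markers, chosen after seeing the data, Nos3 between CSA and CFA went to -1.83. Centred on macrophage markers, also chosen after seeing the data, Nos2 went to -0.0362, a description, since Nos2 passed the filter through the CSA mice alone. Values near 0 that turned sign were, for CSS against CFS under TPM scaling, Gucy1b1 (0.0227) and Npr1 (0.0235). With mice left out, the range for CSS against CFS was -0.23 to 0.00701 for Gucy1a1, -0.16 to 0.0358 for Gucy1b1, -0.0965 to 0.0624 for Npr1 and -0.14 to 0.0422 for Npr2. For CFA against CFS it was -0.61 to 0.72 for Nos3 and -0.14 to 0.0562 for Pde3a. The cause was not tested. With 3 mice per group, an effect under the fold limit could be missed, and depth limits Nos1 and Nos2, with at most 21 and 384 fragments per library.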

Other observations

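Among the pathway genes under the filter were the ligands of Npr1 and Npr2. Nppa held 3 fragments over the CFA libraries and was listed at 0 in all 3 other groups. Nppb held 2 in CSS and 5 in CFA and was listed at 0 in CFS and CSA. Nppc, the C-type peptide, held 1 in CFS, 4 in CSS, 1 in CFA and 7 in CSA. These counts are too low to compare groups, and these genes and Corin were named after their values were seen. Corin, the peptidase that activates the atrial peptide, was 0.553 ± 0.0936 FPKM in CFS, 0.281 ± 0.157 in CSS, 0.237 ± 0.0724 in CFA and 0.0849 ± 0.0637 in CSA (mean ± SD of 3 mice), with no test.

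Pde10a, a phosphodiesterase of both cyclic nucleotides, was 0.342 ± 0.0434 FPKM in CFA and 0.548 ± 0.247 in CSA, and Pde11a was 0.0271 ± 0.0315 and 0.148 ± 0.0584 (mean ± SD of 3 mice). Both were under the filter and untested. Pde2a, the phosphodiesterase that cGMP stimulates, did not exceed 0.02403 FPKM in any library. The phosphodiesterases of this paragraph were also named after their values were seen.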
